A study of Bos taurus with 4 samples.

Results

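Muscle RNA-Seq of 4 Angus steers was examined for 3 mitochondrial protein-coding genes, ENSBTAG00000043561, ENSBTAG00000043546 and ENSBTAG00000043577. They are 3 of the 13 mitochondrial protein-coding genes that the study lists, among 24616 Ensembl genes in the deposited table. The 3 genes were chosen by the difference between the libraries of the grain-fed steers, which was about 1.7-fold or more per 1000000 in the deposited values. All 3 had reads in every library and passed the filter on low values. The difference between the grain-fed libraries is therefore given as a description, with no test.

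All 4 animals were Aberdeen Angus steers of the closed Wye Angus herd, kept on the same feed up to weaning and then given 1 diet only. The 2 grass-fed steers ate grazed alfalfa and pasture or hay of orchard grass, alfalfa and clover, with baled forage in winter and no grain. The 2 grain-fed steers, the controls, ate corn silage, shelled corn, soybean and minerals. Longissimus dorsi muscle was taken from the hot carcass. By the methods, animals were slaughtered at market weight and the grass-fed steers needed longer to reach it, so diet, age and season cannot be told apart. The paper describes the grain-fed animals as confined and the grass-fed animals as moving freely, so housing cannot be told apart from diet either. The columns Grain1, Grain2, Grass1 and Grass2 give the diet but not the steer.

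Mitochondria carry a small circular genome of their own. Its protein-coding genes, which the RefSeq table of the cattle assembly ARS-UCD2.0 lists as ND1 to ND6, ND4L, COX1 to COX3, ATP6, ATP8 and CYTB, encode membrane subunits of complex I, complex III, complex IV and the ATP synthase of oxidative phosphorylation. Both strands are transcribed as long precursors, which are cut, largely at the tRNAs between the genes, into separate mRNAs. The level of each mRNA thus depends on transcription of its strand and on its processing and stability. Muscle with a high oxidative capacity is rich in these transcripts. The RefSeq table holds none of the Ensembl identifiers of the deposited table, with 0 of 24616 paired, so the symbol, role and length of each of the 3 genes are not given here. Levels are compared between libraries and not between genes. The muscle label was not checked against marker genes for the same reason.

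Values are given on 2 scales. The first is the deposited value, which matches an edgeR pseudo-count adjusted to 1 common library size, per 1000000 of the mean column total. The second is the number of reads, recovered by inverting that adjustment, per 1000000 reads on genes of the same library. The libraries held between 5683894 and 7447453 reads on genes. The scales differ because the trimmed mean of M-values (TMM) factors in the deposited values ranged from 0.728 in Grain2 to 1.27 in Grass1. Intervals given below for reads cover counting error only, since reads without molecular identifiers are not independent molecules.

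In deposited values, ENSBTAG00000043561 was high in Grain2 alone. Its deposited value per 1000000 was 58600 in Grain1, 207500 in Grain2, 70590 in Grass1 and 68140 in Grass2. Grain1 was the lowest library and Grain2 the highest, and both grass-fed libraries lay between them, so the diets overlapped. Grain2 exceeded Grass1 2.94-fold and Grass2 3.04-fold, whereas Grass1 and Grass2 exceeded Grain1 1.20-fold and 1.16-fold. The reads were 302478, 1013587, 624958 and 637147 in the same order. They made up 5.32% of the reads on genes in Grain1, 15.5% in Grain2, 9.22% in Grass1 and 8.56% in Grass2. The order of the grain-fed libraries on either side of the grass-fed pair was the same on both scales. As a percentage of reads, however, Grain1 lay further below the grass-fed pair than in deposited values, and Grain2 less far above it. In bulk tissue, fewer cells or mitochondria and less RNA in each cannot be told apart.

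**Figure D1:**
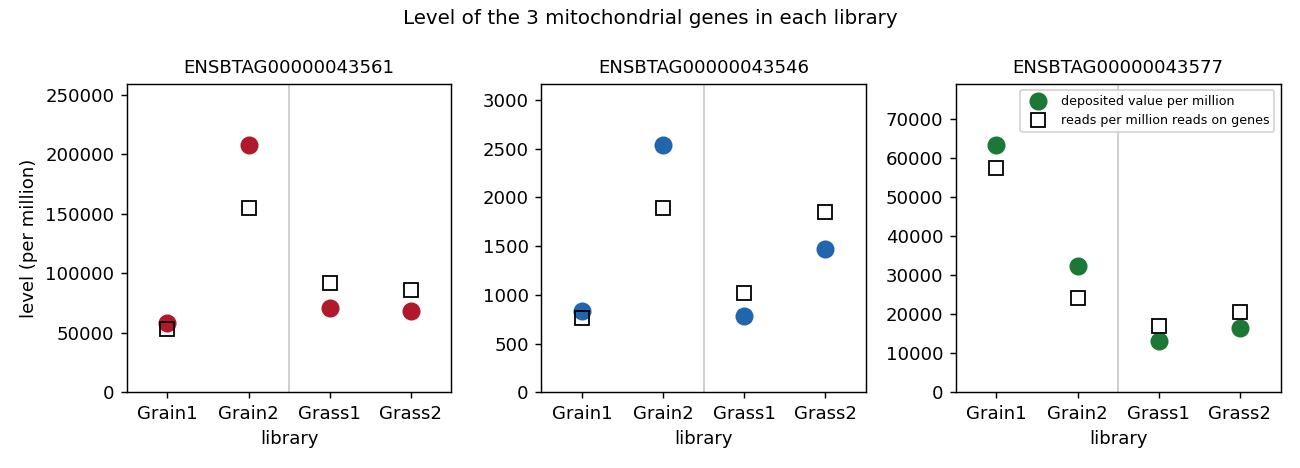
Level of each of the 3 genes (one panel each, vertical axis per 1000000, linear from 0) in Grain1, Grain2, Grass1 and Grass2. Filled circles are deposited values and open squares are reads per 1000000 reads on genes, with 1 point per library; Grain2 is the highest library for ENSBTAG00000043561 and ENSBTAG00000043546, and Grain1 for ENSBTAG00000043577.

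ENSBTAG00000043546 had the smallest number of reads of the 3 genes and differed within both diets. Its deposited value per 1000000 was 834 in Grain1, 2535 in Grain2, 784 in Grass1 and 1472 in Grass2. Grain1 lay next to Grass1, at 1.06-fold, and Grass2 lay between these 2 libraries and Grain2. The reads were 4305, 12384, 6940 and 13766. As reads per 1000000 reads on genes, the levels were 757 in Grain1, 1896 in Grain2, 1024 in Grass1 and 1848 in Grass2. On this scale Grain2 and Grass2 were close together at the top, and Grain1 was below both grass-fed libraries.

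ENSBTAG00000043577 had the opposite order in the grain-fed libraries. Its deposited value per 1000000 was 63250 in Grain1, 32380 in Grain2, 13050 in Grass1 and 16470 in Grass2. Grain1 and Grain2 were each higher than Grass1 and Grass2. Grain1 exceeded Grass1 4.85-fold and Grass2 3.84-fold, and Grain2 exceeded them 2.48-fold and 1.97-fold. The reads were 326511, 158190, 115565 and 153971. Per 1000000 reads on genes the levels were 57440, 24220, 17050 and 20670, and the diets did not overlap on this scale either. The gap between Grain2 and Grass2 was much smaller on this scale than in deposited values.

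The difference between the grain-fed libraries, which selected the genes, was 3.54-fold for ENSBTAG00000043561 and 3.04-fold for ENSBTAG00000043546, both higher in Grain2, and 1.95-fold for ENSBTAG00000043577, higher in Grain1. Of the 10 other mitochondrial genes, the nearest to the limit of 1.7-fold was ENSBTAG00000043559 at 1.50-fold, higher in Grain1, followed by ENSBTAG00000043563 at 1.34-fold, higher in Grain2. The smallest difference among the 10 was 1.04-fold. A difference of this size was common in the grain-fed pair: of the 646 genes averaging 100 per 1000000 or more, 268, or 41.5%, were at least 1.7-fold apart. Among these genes, 5.11% had a larger difference in the grain-fed pair than ENSBTAG00000043561, 8.05% a larger one than ENSBTAG00000043546 and 28.6% a larger one than ENSBTAG00000043577.

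The grass-fed libraries were not used to select the genes. There, ENSBTAG00000043561 was 1.04-fold apart (higher in Grass1), ENSBTAG00000043577 1.26-fold (higher in Grass2) and ENSBTAG00000043546 1.88-fold (higher in Grass2) in deposited values. The 10 other mitochondrial genes ranged from 1.01-fold to 1.44-fold, so ENSBTAG00000043546 differed most of the 13 in the grass-fed pair. Of the 646 genes, 6.66% were at least 1.7-fold apart in the grass-fed pair, and 2.94% differed more than ENSBTAG00000043546. Its ratio of Grass2 over Grass1 in reads per 1000000 was 1.81 with a 95% interval of 1.75 to 1.86 from the exact binomial method, against 0.928 (0.924 to 0.931) for ENSBTAG00000043561 and 1.21 (1.20 to 1.22) for ENSBTAG00000043577. With 1 library on each side there is no replicate check of these ratios.

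**Figure D2:**
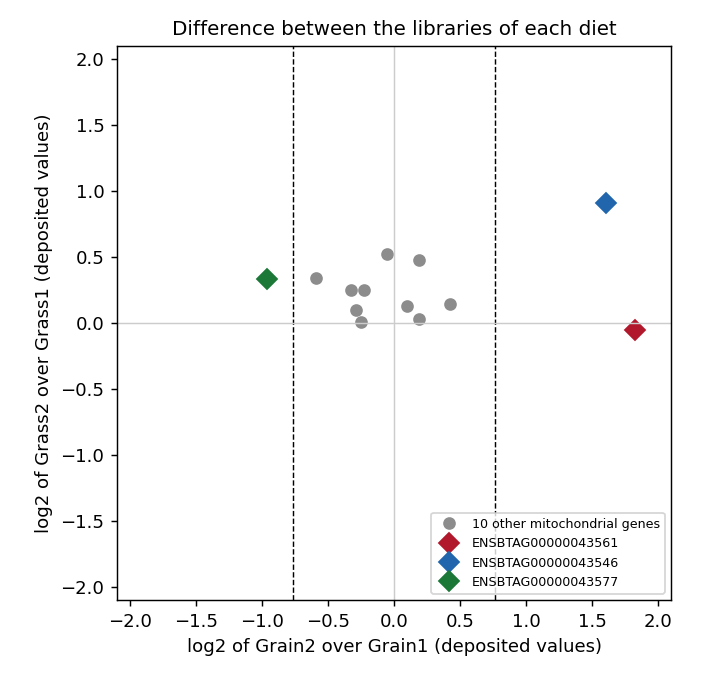
Log2 ratio of library 2 over library 1 in the grain-fed pair (horizontal axis) and in the grass-fed pair (vertical axis), deposited values, for the 13 mitochondrial protein-coding genes; vertical dashed lines mark 1.7-fold in the grain-fed pair. The 3 genes lie outside these lines, as their selection required, and only ENSBTAG00000043546 of the 13 is also past 1.7-fold in the grass-fed pair, at 1.88-fold.

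Within a library, the share of each gene in the reads on the 13 mitochondrial genes does not depend on the scaling between libraries. ENSBTAG00000043561 took 14.8% of these reads in Grain1 (95% Wilson interval 14.7 to 14.8), 40.5% in Grain2 (40.5 to 40.6), 42.6% in Grass1 (42.5 to 42.7) and 36.8% in Grass2 (36.7 to 36.9). Grain2 lay between the grass-fed libraries and Grain1 was far below the other 3. ENSBTAG00000043577 took 15.9% in Grain1 (15.9 to 16.0), 6.33% in Grain2 (6.30 to 6.36), 7.87% in Grass1 (7.83 to 7.92) and 8.89% in Grass2 (8.85 to 8.94). Here Grain1 was the highest library and Grain2 the lowest, below both grass-fed libraries, although the level of the gene was higher in Grain2 than in either. ENSBTAG00000043546 took 0.210% in Grain1 (0.204 to 0.216), 0.495% in Grain2 (0.487 to 0.504), 0.473% in Grass1 (0.462 to 0.484) and 0.795% in Grass2 (0.782 to 0.808). Grain2 and Grass1 were close together, Grain1 was lowest and Grass2 highest.

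The shares of the 3 genes overlapped between diets. Their selection on a wide gap between Grain1 and Grain2 favours such overlap and enters the tests that follow. The mean share of ENSBTAG00000043561 was 27.6% ± 18.3 (SD, n = 2) on grain and 39.7% ± 4.08 on grass, a difference of 12.0 percentage points (exact two-sided permutation p = 0.667). For ENSBTAG00000043577 the means were 11.1% ± 6.78 and 8.38% ± 0.722 (grass-fed minus grain-fed -2.74 percentage points, exact permutation p = 1). For ENSBTAG00000043546 they were 0.353% ± 0.202 and 0.634% ± 0.228 (0.281 percentage points, exact permutation p = 0.667). A comparison of 2 against 2 libraries cannot give an exact p under 0.333. Of the 10 other genes, 4 had a higher share in both grain-fed libraries, 1 had a higher share in both grass-fed libraries and 5 overlapped.

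For 2 of the 3 genes the direction of the share difference depended on Grain1. Without it, the difference of ENSBTAG00000043561 turned to -0.873 percentage points and that of ENSBTAG00000043577 to 2.05, and without Grain2 they were 24.9 and -7.54. For ENSBTAG00000043546 it stayed positive, at 0.138 without Grain1, 0.424 without Grain2, 0.442 without Grass1 and 0.120 without Grass2.

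**Figure D3:**
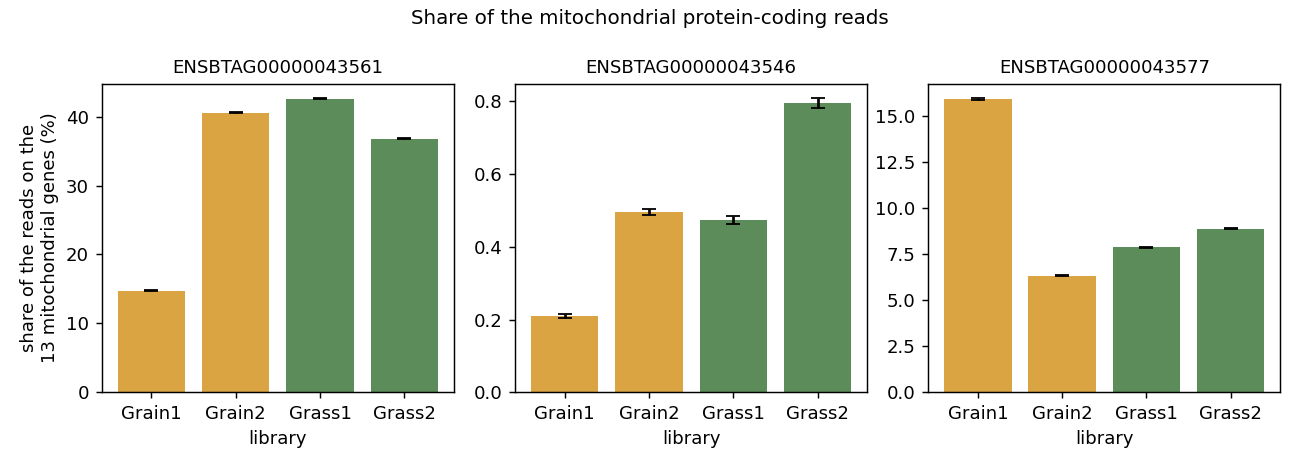
Share of each of the 3 genes in the reads on the 13 mitochondrial protein-coding genes (vertical axis in percent, from 0, a different range in each panel), 1 bar per library with 95% Wilson intervals that cover counting error only. Grain1 has the lowest share for ENSBTAG00000043561 (14.8%) and ENSBTAG00000043546 (0.210%) and the highest for ENSBTAG00000043577 (15.9%).

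The summed share of the 3 genes was lowest in Grain1. They held 30.9% of the signal of the 13 in Grain1, 47.4% in Grain2, 50.9% in Grass1 and 46.5% in Grass2. The other 10 genes summed to 274600 and 269200 deposited values per 1000000 in Grain1 and Grain2, a ratio of 1.02. The sum of the 3 genes was 122700 and 242400, 1.98-fold higher in Grain2. The selection of the 3 genes for a wide grain-fed gap, and of the 10 for a narrow one, favours this contrast. In the grass-fed libraries the 10 genes summed to 81410 and 99110, and the 3 genes to 84430 and 86080. The near-equal sums of the 10 genes in the grain-fed pair belong to the deposited scaling: as a percentage of reads on genes they were 24.9% in Grain1 and 20.1% in Grain2. All 13 genes held 36.1% of the reads on genes in Grain1 and 38.3% in Grain2. Without ENSBTAG00000043561 the remaining 12 held 30.8% and 22.8%, so that Grain1 and not Grain2 was the higher library. The same 12 genes held 12.4% in Grass1 and 14.7% in Grass2.

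**Figure D4:**
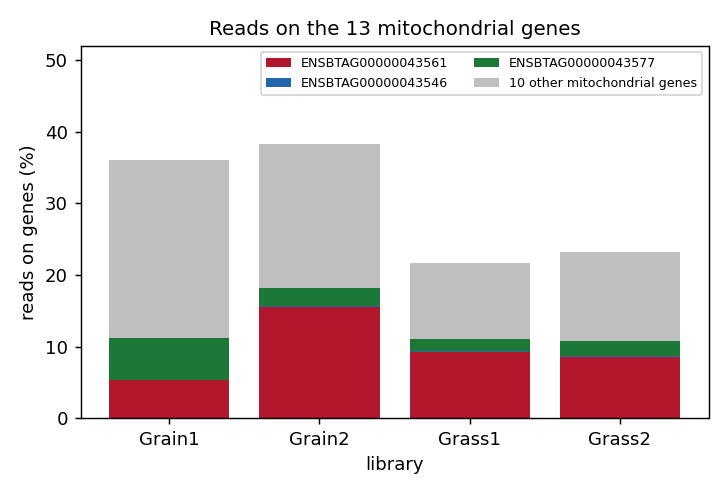
Reads on the 13 mitochondrial protein-coding genes as a percentage of all reads on genes (vertical axis from 0) in each library, stacked by gene. ENSBTAG00000043561 (red) takes 5.32% in Grain1 and 15.5% in Grain2, ENSBTAG00000043577 (green) 5.74% and 2.42%, and ENSBTAG00000043546 (blue) at most 0.190%, a layer too thin to be seen.

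Ratios of the 3 genes to each other, also free of the scaling, are given as a description, since the gap between Grain1 and Grain2 in them restates the selection. The deposited value of ENSBTAG00000043561 over that of ENSBTAG00000043577 was 0.926 in Grain1, 6.41 in Grain2, 5.41 in Grass1 and 4.14 in Grass2. ENSBTAG00000043577 over ENSBTAG00000043546 was 75.8 in Grain1 against 12.8, 16.6 and 11.2 in the other libraries. ENSBTAG00000043561 over ENSBTAG00000043546 varied less, with 70.3 in Grain1, 81.9 in Grain2, 90.0 in Grass1 and 46.3 in Grass2, and it was Grass2 that stood lowest. These ratios are not corrected for length, so their size says nothing about which gene was more abundant.

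Over all 13 genes, the mean absolute difference of the log2 share was 0.66 between Grain1 and Grain2, 0.70 and 0.69 between Grain1 and the grass-fed libraries, and 0.20 between the grass-fed libraries. Grain2 was 0.23 from Grass1 and 0.34 from Grass2. By this measure over the 13 genes, Grain2 was nearer to either grass-fed library than to Grain1. The 3 genes were selected for a gap between Grain1 and Grain2, so nothing is read from this ranking. Over the 10 other genes, as shares of their own sum, the difference was 0.26 between Grain1 and Grain2 and 0.27 and 0.31 between Grain2 and the grass-fed libraries, values too close to rank, and these genes were left outside the rule for their narrow gap between Grain1 and Grain2. Why Grain1 and Grain2 differed in the 3 genes was not tested.

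The study compared diets, and the diet difference was fitted with limma over 10461 genes, those averaging 1 per 1000000 or more. It called 0 genes at an adjusted p under 0.1, or 0%, and so none of the 3; 918 genes had an unadjusted p under 0.05, and the smallest adjusted p was 0.272. The quasi-likelihood test of edgeR on the recovered reads called 0 genes as well, with 942 at an unadjusted p under 0.05. On simulated counts both tests missed most genes changed 8-fold, so 0 calls do not show that the diets were alike. The mean of ENSBTAG00000043561 was 133000 ± 105300 per 1000000 (SD, n = 2) on grain and 69370 ± 1733 on grass. Its log2 fold change from grain to grass was -0.67 (standard error 0.60, limma adjusted p = 0.709), with a 95% interval of -2.07 to 0.73. The spread of the grain-fed pair was larger than the difference of the means. ENSBTAG00000043546 had 1685 ± 1203 and 1128 ± 487 per 1000000, and a log2 fold change of -0.44 (standard error 0.58, limma adjusted p = 0.804, interval -1.79 to 0.91), also within the spread of the libraries. ENSBTAG00000043577 had 47820 ± 21830 and 14760 ± 2414 per 1000000, and a log2 fold change of -1.63 (standard error 0.44, limma adjusted p = 0.483, interval -2.65 to -0.61). Its unadjusted p from limma was 0.00657, and it did not pass the adjusted threshold. The spread between Grain1 and Grain2, on which the genes were selected, enters each of these standard errors.

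The lower grain-fed value exceeded the higher grass-fed value for 1 of the 3 genes, against 10 of the 10 other mitochondrial genes and 18.2% of all genes tested. The selection of the 3 genes for a wide grain-fed gap, and of the 10 for a narrow one, tilts this count, and nothing is read from it. The median log2 fold change was -0.67 over the 3 genes, -1.51 over the 10 others and 0.11 over all genes tested. The 10 others ranged from -2.32 to -1.15, with adjusted p-values from limma between 0.272 and 0.501, so ENSBTAG00000043577 lay within their range, and ENSBTAG00000043561 and ENSBTAG00000043546 lay above it. The difference between the 3 genes and the 10 was not tested. The study names the likelihood ratio test of edgeR, and whether it was run there with TMM factors is not settled here. Run on the recovered reads with these factors, the test called 124 of 24616 genes lower on grass, or 0.504%, and 49 higher, with none of the 3 among them. Without the factors, a setting chosen after seeing the data, it called 60 genes lower and 177 higher, and again none of the 3. DESeq2 called 206 of the 9025 genes to which it gave an adjusted p lower on grass, or 2.28%, and 87 higher, and among the lower ENSBTAG00000043577 (log2 fold change -1.78, DESeq2 adjusted p = 0.0363). On simulated counts of this comparison DESeq2 called 106 changed and 65 unchanged genes. This is a larger unchanged fraction among its calls than the threshold allows, so its call is the less firm. Over the other settings, the adjusted p of ENSBTAG00000043577 from limma or edgeR was between 0.109 and 1.

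The diet difference of 2 of the 3 genes rested on Grain2. Without Grain2 the log2 fold change was 0.24 for ENSBTAG00000043561 and 0.365 for ENSBTAG00000043546, both higher on grass, and without Grain1 it was -1.58 and -1.24. For ENSBTAG00000043577 it was -2.11 without Grain2 and -1.14 without Grain1, so the direction was kept. Its grain-fed values both lay above both grass-fed values, so leaving out a library could not turn the direction. With 2 libraries in a diet, leaving out either moves the log2 fold change equally far in opposite directions, for any gene. Leaving out a grass-fed library moved ENSBTAG00000043561 little, to -0.69 without Grass1 and -0.64 without Grass2, and ENSBTAG00000043577 to -1.46 and -1.79. ENSBTAG00000043546 went to 0.02 without Grass1 and to -0.89 without Grass2, so each of the 4 libraries moved it by over 1.5 times or turned its direction. No value passed the adjusted threshold in these fits, in which the spread of the remaining lone library was taken from the other diet.

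The scaling moved these values together with those of all genes. After all columns were set to equal totals, the log2 fold change was -0.03 for ENSBTAG00000043561, 0.20 for ENSBTAG00000043546 and -0.99 for ENSBTAG00000043577. The median over all genes then moved from 0.11 to 0.67. Relative to that median the values were -0.70, -0.47 and -1.66, against -0.78, -0.55 and -1.74 with the deposited scaling. Relative to the median gene, the 3 genes were thus lower on grass under both scalings, but without Grain2 ENSBTAG00000043561 and ENSBTAG00000043546 were at 0.05 and 0.17 above it. Relative to the total of the 13 mitochondrial genes, a scaling chosen after seeing the data, they were 0.69, 0.93 and -0.26, so ENSBTAG00000043561 and ENSBTAG00000043546 were on average higher on grass within the mitochondrial signal. The median over all genes was then 1.26, and relative to it all 3 genes were lower on grass. None of the 3 passed the threshold there, with limma adjusted p-values of 0.298, 0.221 and 0.655.

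**Figure D5:**
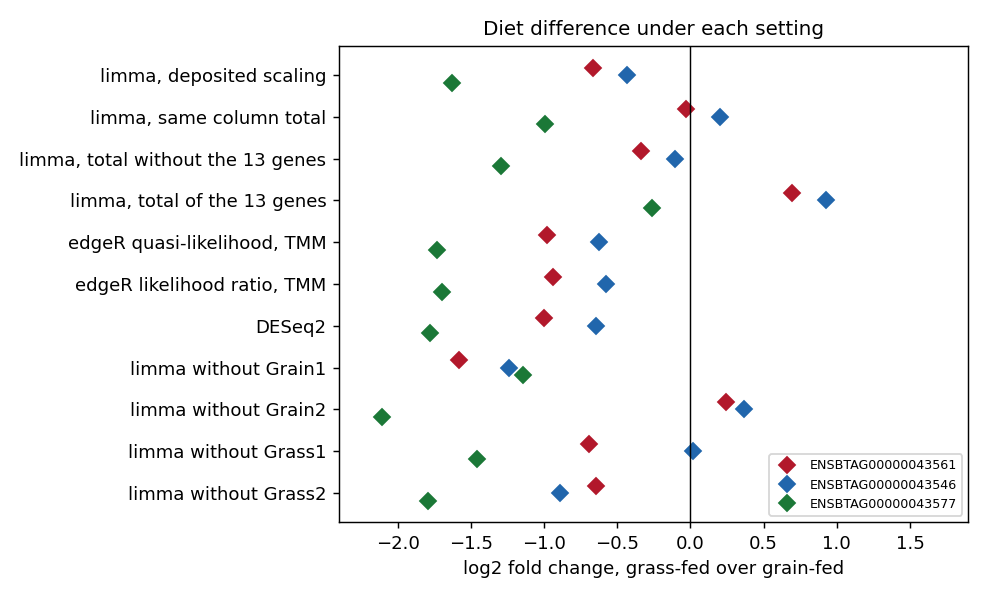
Log2 ratio of grass-fed to grain-fed (horizontal axis) of the 3 genes under the fits named on the vertical axis, 1 marker per gene and fit. ENSBTAG00000043577 is negative in every fit drawn, from -2.11 to -0.26, whereas ENSBTAG00000043561 and ENSBTAG00000043546 are positive without Grain2 and with the total of the 13 genes, and ENSBTAG00000043546 also with the same column total (0.20) and without Grass1 (0.02).

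Genes outside the 13 with a like pattern were ranked by the root-mean-square difference of log2(value + 1), centred on its mean, over the 4 libraries, among 633 genes averaging 100 per 1000000 or more. The nearest to ENSBTAG00000043561 was ENSBTAG00000019521 (0.11), with 242 and 713 per 1000000 in Grain1 and Grain2 and 293 and 255 in Grass1 and Grass2. The nearest to ENSBTAG00000043577 was ENSBTAG00000002495 (0.10), with 225, 132, 55.5 and 64.3 per 1000000. The nearest to ENSBTAG00000043546 was ENSBTAG00000015089 (0.09), with 106, 278, 96 and 166 per 1000000. ENSBTAG00000010880 was the second nearest to both ENSBTAG00000043561 and ENSBTAG00000043546, at 0.20 and 0.23, with 12900 in Grain1, 34600 in Grain2, 12500 in Grass1 and 15500 in Grass2. Its identifier, like the others, is not paired with a name here. Among the 13, the nearest to ENSBTAG00000043577 was ENSBTAG00000043559 at 0.20, and ENSBTAG00000043561 and ENSBTAG00000043546 were nearest to each other at 0.37. With 4 libraries these distances only describe the patterns.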

How the data were processed

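The authors aligned reads with Bowtie to BosTau6 (UMD3.1), counted them with GenomicRanges and used edgeR; tool versions are not given in these sources. The deposited signal has the form of edgeR pseudo-counts, adjusted by the authors within each diet to 1 common library size; this was worked out from the values. The adjustment was inverted with a fitted common dispersion. Whole reads were found for 100% of the genes with reads at a relative tolerance of 1e-05, and the inversion was tested on simulated data.

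Diets were compared with limma 3.58.1 (trend) on log2(value + 1) per 1000000, with a mean of at least 1 per 1000000, Benjamini-Hochberg adjustment and a threshold of 0.1. The recovered reads tested with edgeR 4.0.16 and with DESeq2 1.42.0, other scalings, pseudocounts and filters, and each library left out were alternatives (R 4.3.3). The tests were tried on simulated counts, where the likelihood ratio test and, most of all, DESeq2 called a larger share of unchanged genes than the threshold allows. By the labels each library comes from a separate steer.

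The 3 genes, the lists and the tests were chosen with earlier results of these data known. The 13 identifiers were read from a picture of the study's heat map. Genes of like pattern were named by the smallest root-mean-square difference (3 ranked for each gene; the nearest and a shared second are given). The 15 lists of nuclear and marker genes are not analysed here, since 0 identifiers are paired with symbols. Sequences are not shown for the same reason.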

Additional observations from a re-analysis of the deposited data

How the results depend on the processing

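The ratio of the deposited values in Grain2 over Grain1 was 3.54, 3.04 and 0.512 for ENSBTAG00000043561, ENSBTAG00000043546 and ENSBTAG00000043577. It was 2.92, 2.50 and 0.422 both after equal column totals were set and as reads per 1000000, and 2.75, 2.36 and 0.398 relative to the total of the 13 mitochondrial genes. The ratio of Grass2 over Grass1 was 0.965, 1.88 and 1.26 in deposited values, 0.928, 1.81 and 1.21 under the first 2 alternatives and 0.864, 1.68 and 1.13 under the last. These shifts exceed the counting intervals, and no direction changed.

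The log2 fold change of ENSBTAG00000043561 reversed to 0.69 relative to the total of the 13, and lay between -1.58 and 0.24 with a library left out. That of ENSBTAG00000043546 reversed to 0.20 with the same column totals, to 0.11 without TMM factors in either edgeR test, quasi-likelihood or likelihood ratio, and to 0.93 relative to the 13, and lay between -1.24 and 0.365 with a library left out. These scalings shift all genes: relative to the median of all genes, ENSBTAG00000043546 was at -0.47 with the same column totals, -0.51 in the quasi-likelihood test without TMM factors and -0.34 relative to the 13, and ENSBTAG00000043561 at -0.57 in the last, so neither reversed against the median gene in these. In the likelihood ratio test without TMM factors ENSBTAG00000043546 was at 0.11 against a median of 0, taken over 24616 genes of which 16288 had reads. Without Grain2 both genes reversed against the median gene, ENSBTAG00000043546 to 0.17 and ENSBTAG00000043561 to 0.05. ENSBTAG00000043577 kept its direction in all 20 alternatives and passed the threshold in DESeq2, at -1.78. Many of the alternatives could not turn it. The pseudocounts, filters, limma variants and stricter threshold left its log2 fold change at -1.63. Leaving out a library could not turn it either, since both grain-fed values lay above both grass-fed values. With a library left out, the share difference lay between -0.873 and 24.9 percentage points for ENSBTAG00000043561 and between -7.54 and 2.05 for ENSBTAG00000043577. The count of 0 genes called became 173 in the likelihood ratio test, 237 in that test without TMM factors (177 higher and 60 lower on grass, against 49 and 124 with them), 293 in DESeq2 (87 higher and 206 lower) and 1889 relative to the total of the 13 (1873 higher and 16 lower), a scaling that moves the median of all genes to 1.26; the second and the last were chosen after seeing the data. The other causes were not tested. No filter here still left out genes without reads. All mitochondrial rows as the denominator and the nuclear gene lists were not run, since no identifier is paired. No paired analysis was possible because the steers share no replicate numbers. Depth limited none of the 3 genes, which had at least 4305 reads in each library.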
